A study of Ovis aries with 3 samples.

Results

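The miRNAs described here are 5 entries of the count files whose sequences belong to miRNAs encoded inside the Hox gene clusters, out of 822 entries in all. They were taken by name and sequence, with earlier results of these data known. They are oar-miR-10a, oar-miR-10b, novel_mir_92 with the sequence of miR-196a, novel_mir_153 with 1 substitution against miR-196a, and novel_mir_91, which is contained in miR-615-3p. All 5 had reads in the cecum and colon libraries, and 4 of the 5 had reads in the duodenum library. The small RNA came from 3 gut segments of 3 Small tailed Han ewes at 11 months of age, namely duodenum (DU), cecum (CE) and proximal colon (CO). RNA of the ewes was pooled within each segment before sequencing, which left a single library for every segment and no measure of the spread between animals. The tissue is labelled as mucosal epithelium of the intestine.

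Hox genes encode transcription factors that give positions along the body axis their identity, and they lie in clusters. The order of the genes in a cluster follows the order of their expression domains from head to tail. The miR-10 genes lie near HOXB4 and HOXD4, the miR-196 genes near HOXA9, HOXB9 and HOXC9, and the miR-615 gene lies within HOXC5. The mature miRNAs repress mRNAs that pair with bases 2 to 8 at their 5′ end, the seed, and Hox mRNAs such as HOXB8 for miR-196 and HOXD10 for miR-10b are among their known targets. In the gut, Hox genes of the later groups are known for their expression toward the hind end.

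The listed mature sequences show which entries share a seed as listed and which differ by 1 base. They are written 5′ to 3′ as DNA letters from the count files, with the seed in capitals.

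oar-miR-10a: tACCCTGTagatccgaatttg

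oar-miR-10b: aCCCTGTAgaaccgaatttgtg

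novel_mir_92: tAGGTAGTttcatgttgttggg

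novel_mir_153: tAGGTAGTtttatgttgttggg

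novel_mir_91: tCCGAGCCtgggtctccctct

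The sheep entry of miR-10b starts 1 base later than that of miR-10a, so bases 2 to 8 of the listed sequences differ. The shared 20 bases differ only by T12A, counted from the 5′ end of oar-miR-10a. The seed of oar-miR-10a opens the listed oar-miR-10b. The study's matching of reads to mature miRNAs allowed shifted positions, so counted reads need not start at the listed base. Whether both act on the same sites cannot be read from this offset. No other entry in the files had, at bases 2 to 8, the seed of oar-miR-10a, of oar-miR-10b, or of novel_mir_91. The seed of novel_mir_92 and novel_mir_153 was the same, and these differed by C11T, counted from the 5′ end of novel_mir_92. The only further entry with this seed, novel_mir_415, was novel_mir_92 with 1 base more at the 3′ end and had 0 reads in all 3 libraries. novel_mir_91 lacked the last base of miR-615-3p as the study lists it.

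The study also lists a miR-196b, which is shown here because novel_mir_153 could be mistaken for it.

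miR-196b in the study's table: tAGGTAGTttcctgttgttggga

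It differed from novel_mir_153 at 2 positions (T11C and A12C, counted from the 5′ end of novel_mir_153), and no entry of the count files had its sequence or one nested with it. The hairpin that the study lists for novel_mir_153 lies on the plus strand of chromosome 11 (chr11:37406119-37406198). The build of these positions is not named in that table, and the methods name Oar_v4.0 for the mapping. Its 80 bases are shown with the mature sequence in capitals, to place the entry on the 5′ arm.

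novel_mir_153 hairpin: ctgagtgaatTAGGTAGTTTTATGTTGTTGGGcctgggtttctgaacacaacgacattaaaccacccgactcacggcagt

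In the RefSeq annotation of the ARS-UI_Ramb_v3.0 assembly, the miR-10a gene is also on chromosome 11, inside the span of HOXB3 and between HOXB5 and HOXB4. The miR-10b gene is on chromosome 2, inside the span of HOXD4 and between HOXD3 and HOXD8.

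Total counts were 14462675 for DU, 15072945 for CE and 13769740 for CO. Of these reads, the 5 members held 0.998% in DU (Wilson 95% interval 0.992 to 1.00%), 6.009% in CE (5.997 to 6.021%) and 4.71% in CO (4.69 to 4.72%). All intervals given here describe counting error and not the spread between animals. A normalized read is a count per 1000000 clean reads that mapped to the genome. Pairwise comparisons used the Audic-Claverie test, an exact test of 2 counts, over all entries that reached 1 normalized read in 1 or both of the libraries. An entry was called where the Bonferroni-corrected p was under 0.01 and the fold change at least 2. With 1 library on each side, the test compares libraries and not segments.

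The 4 members with reads in every library had more normalized reads in CE and CO than in DU. The remaining member, novel_mir_92, was listed at 0 in DU, which may not be a count. In the plot of levels by library, both miR-10 entries stand far above the other members in each segment. The CE and CO comparisons share the DU library, so they are not independent of each other.

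**Figure D1:**
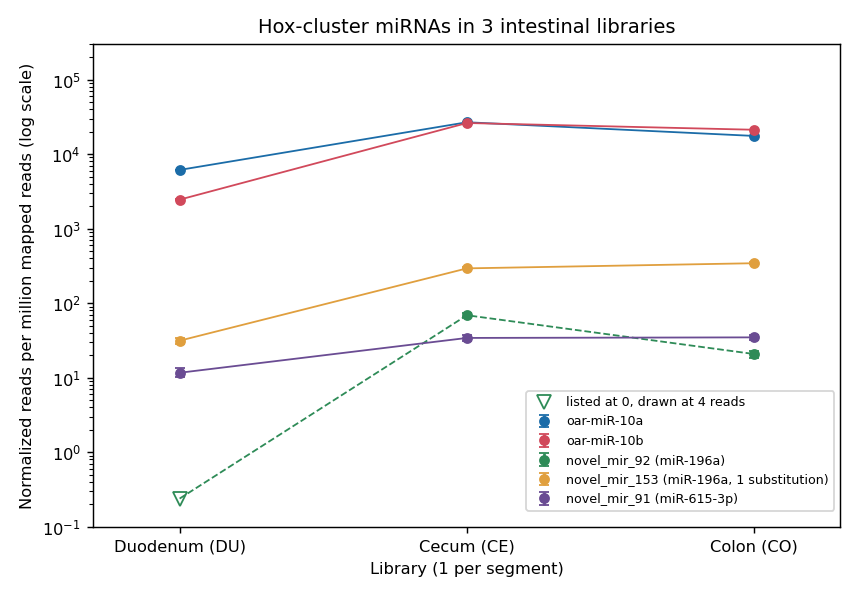
Normalized reads (counts per 1000000 mapped reads, log axis) of the 5 members in the DU, CE and CO libraries, with Poisson 95% intervals that are mostly smaller than the points. The 4 members with reads in every library lie lowest in the DU library. There the open triangle marks novel_mir_92, listed at 0, which may not be a count, drawn at the value of 4 reads.

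oar-miR-10a, the HOXB copy, was counted 102586 times in the duodenum, 454716 times in the cecum and 290212 times in the colon. The normalized values were 6130, 26739 and 17517, so its level was highest in the cecum and lowest in the duodenum. It was 4.36-fold higher in CE than in DU (exact 95% interval 4.33 to 4.39) and 2.86-fold higher in CO than in DU (2.84 to 2.88). Among all entries it held rank 21 by reads in DU, rank 5 in CE and rank 8 in CO.

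oar-miR-10b, the HOXD copy, was counted 40967 times in DU, 444344 times in CE and 351203 times in CO. This corresponded to 2448, 26129 and 21198 normalized reads. The lowest level was again that of the duodenum, and the levels of cecum and colon lay nearer to each other than to it. It was 10.7-fold higher in CE (10.6 to 10.8) and 8.66-fold higher in CO (8.57 to 8.75) than in DU. Its rank by reads was 36 in DU and 7 in each large intestine library.

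novel_mir_153, which shares its seed with miR-196a, was counted 525 times in DU, 4983 times in CE and 5692 times in CO. Its levels of 31.4, 293 and 344 normalized reads made it the only member with its highest level in the colon by more than its counting error. It was 9.34-fold higher in CE (8.53 to 10.2) and 10.95-fold higher in CO (10.01 to 12.0) than in DU.

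novel_mir_92, with the sequence of miR-196a, was listed at 0 reads in the DU library and had 1171 reads in CE and 344 in CO. The smallest count above 0 among predicted entries was 5 reads in every library, so a 0 may hide up to 4 reads, or 0.239 normalized reads in DU. Against 4 reads, its 68.9 normalized reads in CE were at least 288-fold higher and its 20.8 in CO at least 86.9-fold higher than in DU. These bounds hold only if the 0 is a count. In 14 of the 676 predicted entries, novel_mir_92 included, at least 1 library was listed at 0 and another had 1000 or more reads. An example is novel_mir_245, nested in miR-192, with 967314 reads in DU, 490567 in CE and 0 in CO. Another is novel_mir_357 (miR-429), with 3959 reads in DU, 3216 in CE and 0 in CO, where novel_mir_178, an entry nested with it, had 0, 0 and 4268 in that order. Of the entries in the files, only novel_mir_415 was nested with novel_mir_92, and it too had 0 reads in DU.

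novel_mir_91, nested in miR-615-3p, had the fewest reads among the 4 members seen in every library, with 195 in DU, 581 in CE and 576 in CO. At 11.7, 34.2 and 34.8 normalized reads, its levels in CE and CO differed by less than the counting error. It was 2.93-fold higher in CE (2.49 to 3.47) and 2.98-fold higher in CO (2.53 to 3.53) than in DU.

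In the order of levels, oar-miR-10a stood above oar-miR-10b in DU and CE and below it in CO. novel_mir_153 came next in CE and CO, and in DU among the members with reads there. novel_mir_92 stood above novel_mir_91 in CE (Poisson 95% intervals 65.0 to 72.9 and 31.4 to 37.1 normalized reads) and below it in CO (18.6 to 23.1 and 32.0 to 37.7). Leaving aside the listed 0 of novel_mir_92 in DU, neighbours in this order did not overlap in their Poisson intervals in any library. This covers counting error only.

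Between the DU and CE libraries, the 4 members with reads in both were called higher in CE. novel_mir_92 passed the threshold as well, but it entered the test only through its reads in CE and stands against the doubtful 0, so its call supports nothing. Over all 348 entries tested, 12.1% were called higher in CE, and 12.9% passed the fold change of 2 in that direction without regard to the test. The 4 members with reads in both libraries had log2 ratios of CE to DU from 1.55 to 3.42. The median over all tested entries was -0.31. The corrected p of novel_mir_91 was 1.87e-41 (exact Audic-Claverie test). Those of the other members with reads in both libraries were smaller than a computer number can hold. Among the 262 entries that had 10 or more reads on both sides, oar-miR-10b had the largest log2 ratio (3.42), novel_mir_153 the second largest (3.22), oar-miR-10a rank 4 (2.12) and novel_mir_91 rank 8 (1.55). The calls rest on counting error alone. When the exact test of edgeR was used with an assumed coefficient of variation of 0.2, novel_mir_91 was no longer called, and with 0.4 none of these 4 members was.

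Between the DU and CO libraries, the same 4 members were called higher in CO, and novel_mir_92 again passed only against its listed 0. Of the 363 entries tested, 13.8% were called in this direction, and 16.5% passed the fold change alone. These 4 members had log2 ratios of CO to DU from 1.51 to 3.45, and the median over all tested entries was -0.19. The corrected p of novel_mir_91 was 9.77e-43 (exact Audic-Claverie test). Those of the other members with reads in both libraries were smaller than a computer number can hold. Among the 267 entries that had 10 or more reads on both sides, novel_mir_153 stood first (log2 ratio 3.45) and oar-miR-10b second (3.11), with novel_mir_91 at rank 6 (1.58) and oar-miR-10a at rank 8 (1.51). When the assumed coefficient of variation was 0.2, oar-miR-10a and novel_mir_91 were no longer called, and with 0.4 none of these 4 members was.

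**Figure D2:**
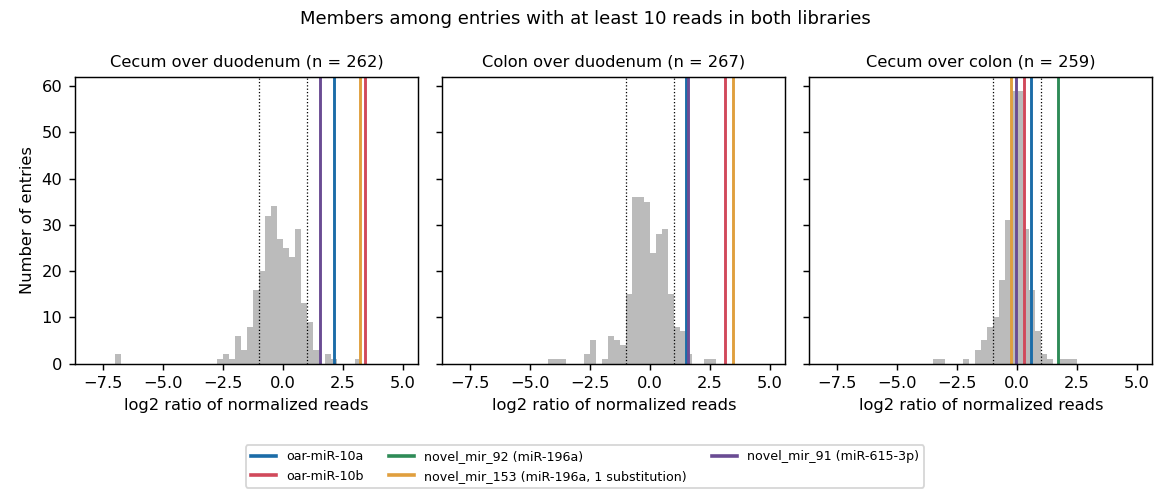
Number of entries by log2 ratio of normalized reads, for entries that had 10 or more reads on both sides (262, 267 and 259 entries), with the members as coloured lines and dotted lines at a fold change of 2. The members lie at the upper end in both comparisons with the duodenum and within the bulk between cecum and colon, except novel_mir_92, which appears only there.

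Between CE and CO, 1 of the 5 members was called. It was novel_mir_92, with 3.32-fold more normalized reads in CE than in CO (2.94 to 3.75, corrected p = 2.50e-98, exact Audic-Claverie test). Over all 326 entries tested, 9.82% were called higher in CE, and 28.5% passed the fold change of 2 in either direction. oar-miR-10a had a log2 ratio of CE to CO of 0.61 (0.60 to 0.62) and oar-miR-10b one of 0.30 (0.30 to 0.31), both below a fold change of 2. That of novel_mir_153 pointed the other way, at -0.23 (-0.28 to -0.17). For novel_mir_91 it was -0.03 (-0.19 to 0.14, corrected p = 1 in the exact test). Under an assumed coefficient of variation of 0.2, novel_mir_92 was not called (corrected p = 0.0196, exact test of edgeR).

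A ratio of 2 members within a library does not depend on the library size. The reads of oar-miR-10b per read of oar-miR-10a were 0.399 in DU (exact 95% interval 0.395 to 0.404), 0.977 in CE (0.973 to 0.981) and 1.21 in CO (1.20 to 1.22). The pair thus went from mostly miR-10a in the duodenum to near balance in the cecum and more miR-10b in the colon. From DU to CE this ratio was 2.45-fold higher (95% interval 2.42 to 2.48), from DU to CO 3.03-fold higher (2.99 to 3.07), and the ratio in CE was 0.807 of that in CO (0.802 to 0.813). All 3 differences passed Fisher's exact test, two-sided and corrected over 6 comparisons, with p-values too small to be held.

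The reads of novel_mir_153 per read of novel_mir_92 were 4.26 in CE (3.99 to 4.54) and 16.5 in CO (14.8 to 18.5). Both entries share a seed, and novel_mir_153 was the more abundant of them in CE and in CO. The ratio in CE was 0.257 of that in CO (95% interval 0.227 to 0.292, corrected p = 9.20e-115, Fisher's exact test). In DU there was no ratio, with 525 reads of novel_mir_153 and 0 of novel_mir_92. This 0 may not be a count, so tests of the split in DU against that in CE or CO support nothing and are not given.

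**Figure D3:**
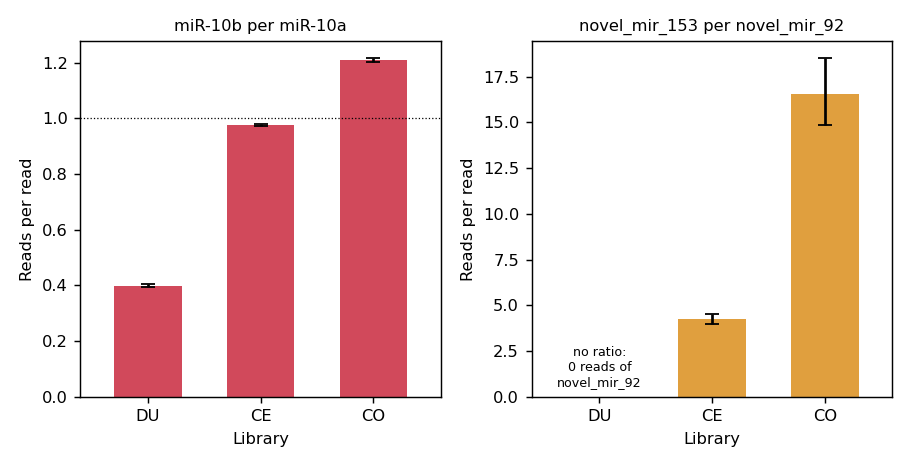
Reads of oar-miR-10b per read of oar-miR-10a (left) and of novel_mir_153 per read of novel_mir_92 (right) in each library, as bars from 0 with exact 95% intervals. The left ratio goes from 0.399 in DU to 1.21 in CO, and the right ratio is 4.26 in CE and 16.5 in CO, with no ratio in DU.

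The nearest relatives of miR-10 are the miR-99 and miR-100 miRNAs, which have a similar sequence but lie outside the Hox clusters, and miR-125, whose genes lie beside theirs. The sequence of oar-miR-99a, the most abundant of them in DU, is shown for comparison with that of oar-miR-10a, with its bases 2 to 8 in capitals.

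oar-miR-99a: aACCCGTAgatccgatcttg

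Over 20 shared bases it differed from oar-miR-10a by C3A, T6C, A17T and T18C, counted from the 5′ end of oar-miR-10a. All 5 relatives listed were found in the files and had reads in every library. None was called higher in CE than in DU, and 1 of 5, novel_mir_195 (nested in miR-125a), was called higher in CO, with 1903, 3345 and 4553 normalized reads in DU, CE and CO. oar-miR-99a had 7518, 6018 and 5532 normalized reads in the same order, and it was the only relative with lower levels in CE and CO than in DU. In the DU library there were 0.815 reads of oar-miR-10a per read of oar-miR-99a, against 4.44 in CE and 3.17 in CO. Over the 5 relatives, the median log2 ratio was 0.62 for CE to DU and 0.41 for CO to DU. Both lay above the medians of all tested entries and below the log2 ratios of each member with reads in every library. Of the other arms of the members' hairpins, miR-10a-3p, miR-10b-3p and miR-196b-3p matched no entry, and miR-196a-3p and miR-615-5p were not analysed here.

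Cell type miRNAs also differed between the libraries, and in bulk tissue fewer cells of a type and less RNA per cell cannot be told apart. For smooth muscle and other mesenchyme, 2 of 5 miRNAs listed were matched, oar-miR-143 and oar-miR-133. oar-miR-143, a miRNA of mesenchymal cells, took 31.9%, 48.4% and 48.0% of the counted reads in DU, CE and CO, although the tissue is labelled as epithelium. The sum of both was 275517, 429636 and 399532 normalized reads. For epithelium, all 8 miRNAs listed were matched and 6 of them had reads in every library. The sum of these 6 was 84005 normalized reads in DU, 20912 in CE and 38406 in CO, of which novel_mir_174 (miR-215) made up 55441, 435 and 4830. Among the 6, the lower sum in CE rests largely on this entry, and without it the sum in CO would lie above that in DU. oar-miR-194 was also called lower in CE than in DU (log2 ratio -1.09) and was lower in CO (-0.59, not called). novel_mir_245 (miR-192) and novel_mir_357 (miR-429) were left out of the sum for their listed 0 in CO. In DU and CE, novel_mir_245 had 57806 and 28847 normalized reads and was called lower in CE. novel_mir_357 had 237 and 189 and was not called. From DU to CO the median log2 ratio of the 6 was 0.32, with higher values in CO for oar-miR-200a (0.51), oar-miR-200b (0.99), oar-miR-200c (0.13) and novel_mir_95 (miR-141, 0.55), none of which was called. From DU to CE the median was -0.45. Of the blood and immune miRNAs, 2 of 5 were matched (miR-150 and miR-155), with sums of 895, 471 and 619 normalized reads. Neither of the 2 endothelial miRNAs listed was matched. The part of cell composition in the levels of the members was not tested.

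Per 1000 reads of oar-miR-143, oar-miR-10a had 22.3, 62.3 and 43.9 reads and oar-miR-10b 8.89, 60.9 and 53.1 reads in DU, CE and CO. On this scale the log2 ratio of CE to DU was 1.48 for oar-miR-10a, 2.78 for oar-miR-10b, 2.58 for novel_mir_153 and 0.91 for novel_mir_91. For CO to DU it was 0.98, 2.58, 2.92 and 1.04 in the same order. All 4 stayed above the DU library relative to oar-miR-143, although novel_mir_91 in CE and oar-miR-10a in CO were below a fold change of 2. Per 1000 reads of the 6 epithelial entries, the log2 ratios were larger, since that sum was lower in CE and CO than in DU. The fall of this sum comes mainly from novel_mir_174 (miR-215), so these log2 ratios depend strongly on that entry. From DU to CE they were 4.13 for oar-miR-10a, 5.42 for oar-miR-10b, 5.23 for novel_mir_153 and 3.56 for novel_mir_91. Between CO and CE the direction turned on this scale for novel_mir_153 (0.65, against -0.23 in normalized reads) and novel_mir_91 (0.85, against -0.03).

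**Figure D4:**
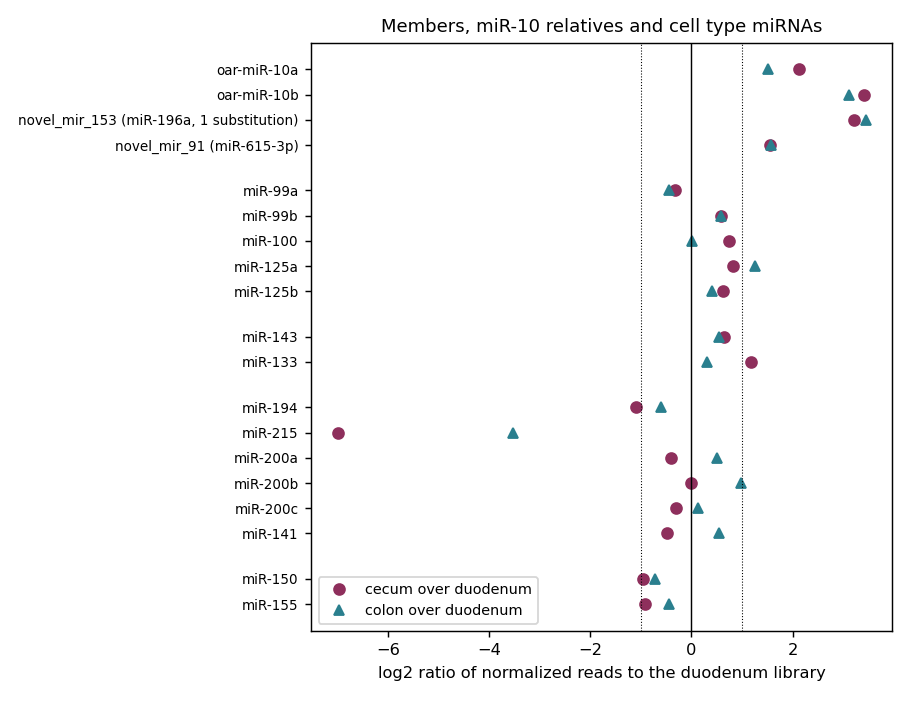
Log2 ratios of normalized reads, cecum over duodenum (circles) and colon over duodenum (triangles). Shown are 4 members, the miR-10 relatives and the matched miRNAs of mesenchyme, epithelium and blood, restricted to entries with reads in every library. The members lie right of the dotted line at 1, while of the others only miR-125a (colon) and miR-133 (cecum) do, and miR-215 lies farthest to the left.

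By likeness of pattern, the largest difference over the log2 ratios of CE to DU and of CO to DU was taken for 244 other entries with at least 10 reads in every library. Closest to oar-miR-10b was novel_mir_24, at 0.58, with 247, 2036 and 1421 reads, and the next, oar-miR-485-3p, was already 1.54 away. The third, novel_mir_99, was at 2.10. Closest to novel_mir_153 were novel_mir_24 at 0.91, oar-miR-485-3p at 1.35 and oar-miR-433-3p at 2.18. For oar-miR-10a, the closest was novel_mir_42, at 0.76, with 63, 172 and 105 reads, before oar-miR-485-3p at 0.77 and novel_mir_99 at 0.81. For novel_mir_91 it was novel_mir_99, at 0.44, with 176, 444 and 384 reads, before oar-miR-433-3p at 0.49 and oar-miR-1197-3p at 0.52.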

How the data were processed

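Small RNA libraries of 3 segments, each from RNA pooled over 3 ewes, were analysed. The authors trimmed the reads, mapped them to Oar_v4.0 with SOAP (the submitters' processing notes name Bowtie), took known miRNAs from miRBase, and used miReap for predictions. The deposited files give raw counts per entry, which were not normalized. The groups follow the labelled intestinal region. The members, the lists of related and cell type miRNAs and the rule for likeness were chosen with earlier results of these data known.

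Counts were divided by the mapped reads that the study states, per 1000000, and a normalized value of 0 was set to 0.01 in log2 ratios. Entries that reached 1 normalized read in 1 or both of the libraries compared were tested with the exact Audic-Claverie test, taking 2 times the smaller tail. It is the test of the study's methods. It was checked on simulated counts, where correct calls were required only for counting error without a spread between animals. Intervals of fold changes are exact from the binomial split of reads. Those of a ratio between libraries of 2 members use the normal approximation of the log odds ratio, because the exact interval planned took too long at these counts. List members were matched by name, or by the sequence the study lists under a name. 13 alternatives used edgeR 4.0.16, DESeq2 1.42.0 and scipy 1.17.1. The quasi-likelihood test of edgeR needs replicates and was not used. Mature and hairpin sequences come from the count files and the study's tables.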

Additional observations from a re-analysis of the deposited data

How the results depend on the processing

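Of 13 alternatives, only edgeR and its exact test, run at an assumed coefficient of variation, changed the number of members called by over 1.5 times. It changes the test and the spread together, so their parts cannot be told apart. With 0.4, 1 of 5 members was called between DU and CE and 1 between DU and CO, both times novel_mir_92 against its listed 0, and 0 between CO and CE. With 0.2, 3 were called between DU and CO and 0 between CO and CE. Each other alternative kept 4 or 5 calls in both comparisons with DU and 1 between CO and CE. Requiring 10 reads in both libraries removed novel_mir_92 from both comparisons with DU.

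Another library size shifted the log2 ratios of all members with reads in both libraries alike. In the comparisons with DU, the largest shift came from leaving oar-miR-143 out of the sum of counts, with 0.37 for CE to DU and 0.45 for CO to DU. With DESeq2 size factors, the log2 ratio of novel_mir_91 from CO to CE turned from -0.03 to 0.027, and no other member changed direction under any alternative. Adding nested entries could not change the within-library ratios, since the only such entry had 0 reads. No paired analysis was possible because there was 1 library per segment. The counts hold no spread between animals, and the 0 of novel_mir_92 may not be a count.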

Other observations

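By the gain in normalized reads rather than by the fold change, oar-miR-10b and oar-miR-10a held ranks 2 and 3 of 822 entries both from DU to CE (23681 and 20609 more normalized reads) and from DU to CO (18750 and 11387 more). The gains of novel_mir_91 and novel_mir_153 were 22.5 and 262 normalized reads from DU to CE and 23.1 and 312 from DU to CO. Those of novel_mir_92, 68.9 and 20.8, stand against its listed 0 in DU.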
